A study of Camellia japonica and Camellia azalea with 81 samples.

Results

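Leaves of Camellia japonica, an evergreen shrub of the tea family that flowers in winter and spring, were compared between winter and autumn. The comparison used 17 of the 81 RNA-seq libraries of a study that followed leaf transcripts through the year in C. japonica and in Camellia azalea, a relative that flowers mainly in summer. Winter was represented by 8 libraries, 3 labelled Dec, 3 labelled Jan and 2 labelled Feb, and autumn by 9 libraries, 3 each labelled Sep, Oct and Nov. All were labelled as young leaf, no treatment or genotype is stated, and both seasons therefore differ by month label alone. The labels give neither the year, the hour of sampling nor the number of plants, and leave unsaid whether the libraries of 1 month stem from different plants. The p-values therefore measure only the spread between these libraries, which may be technical. The third Feb library, labelled Feb leaf 1, was left out because it resembled a flower bud. The numbers used for C. japonica libraries were given in order of accession and serve as names alone.

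An evergreen leaf goes through winter without being shed. In temperate evergreens, short days and low temperature are known to bring on cold acclimation, in which genes for membrane and osmotic protection are induced and photosynthesis and growth are turned down, and the circadian clock and the flowering pathway also respond to season. The IDs of the deposited table are not paired with gene names, so the results below describe IDs, their levels and their timing, and do not assign them to any of these processes.

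Expression was given by the authors as TPM, the abundance of a transcript as a share of 1000000 in its library. TPM keep no record of sequencing depth, so the depth is unknown and no counting interval is given. Levels were compared as log2(TPM + 1), month means were averaged within each season, and the difference was tested with limma over 27375 of the 41982 IDs, those with at least 1 TPM in at least 3 of the 17 libraries. An ID was called where its Benjamini-Hochberg adjusted p was below 0.05 and its log2 difference was 1 or more in size. Between 22906 and 24110 IDs reached 1 TPM in the winter libraries and between 22560 and 24468 in the autumn libraries, with means of 23488 ± 345 and 23774 ± 667 (SD, n = 8 winter and 9 autumn libraries, exact two-sided permutation p = 0.291, 0.582 after adjustment over the 2 library-wide values tested). The 10 most abundant IDs held 8.23% ± 0.924 of TPM in winter and 8.32% ± 0.820 in autumn libraries (SD, same n, exact two-sided permutation p = 0.825, adjusted p = 0.825).

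The leaf label was checked with 2 lists taken from libraries outside the comparison. A bud list held the 81 IDs with at least 10 TPM in each of the 6 libraries of flower buds FB-2 and FB-3 and below 1 TPM in each of the 18 C. japonica leaf libraries of Mar to Aug, and a leaf list held the 12 IDs with the opposite pattern. The bud list summed to between 2.96 and 6.27 TPM in winter libraries, between 2.43 and 17.4 TPM in autumn libraries and between 4875 and 9697 TPM in the buds. At most 2 of its 81 members reached 1 TPM in any winter library and at most 3 in any autumn library, and 50 were at 0 TPM in every winter library and 41 in every autumn library. In the library labelled Feb leaf 1, 49 members reached 1 TPM and the sum was 1624 TPM. The leaf list summed to between 554 and 877 TPM in winter and between 719 and 1295 TPM in autumn, and 3 of its 12 members were called, all higher in autumn, as were 1.74% of all 27375 IDs tested. Only 2 of the 81 bud list members passed the filter on low values, and 0 were called. In bulk tissue, fewer cells of a type and less RNA per cell cannot be told apart.

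Not all winter libraries resembled each other. The 6 libraries Dec leaf 2, Dec leaf 3, Jan leaf 1, Jan leaf 2, Feb leaf 2 and Feb leaf 3 correlated with each other at r between 0.954 and 0.988 across all IDs. The other two, labelled Jan leaf 3 and Dec leaf 1, correlated with those 6 at r between 0.887 and 0.933. Their best partner among the 17 libraries was in both cases the autumn library Nov leaf 1 (r = 0.952 for Jan leaf 3 and 0.976 for Dec leaf 1). Among all C. japonica libraries, Jan leaf 3 correlated best with a summer leaf, Aug leaf 2 (r = 0.956), and Jan leaf 2 with a spring leaf, Mar leaf 1 (r = 0.986). Whether labels were exchanged was not tested. In autumn, libraries of different months were often closer than libraries of the same month. Among the 17 libraries, no autumn library had its best partner in its own month, and 8 of 9 had it in another autumn month. Among all C. japonica libraries, Sep leaf 1 and Oct leaf 3 were closest to Aug leaf 3. Sep leaf 3 was closest to Aug leaf 2, Oct leaf 1 to Mar leaf 2 and Nov leaf 1 to Dec leaf 1. The other autumn libraries kept an autumn partner. The libraries Sep leaf 2, Oct leaf 2 and Nov leaf 2 correlated with each other at r between 0.968 and 0.972, whereas pairs of the same autumn month lay between 0.914 and 0.947. Genes are not independent replicates, and these r describe the libraries only. Labels were kept as given, and the main counts and the values these 2 libraries move most are also given without them.

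**Figure D1:**
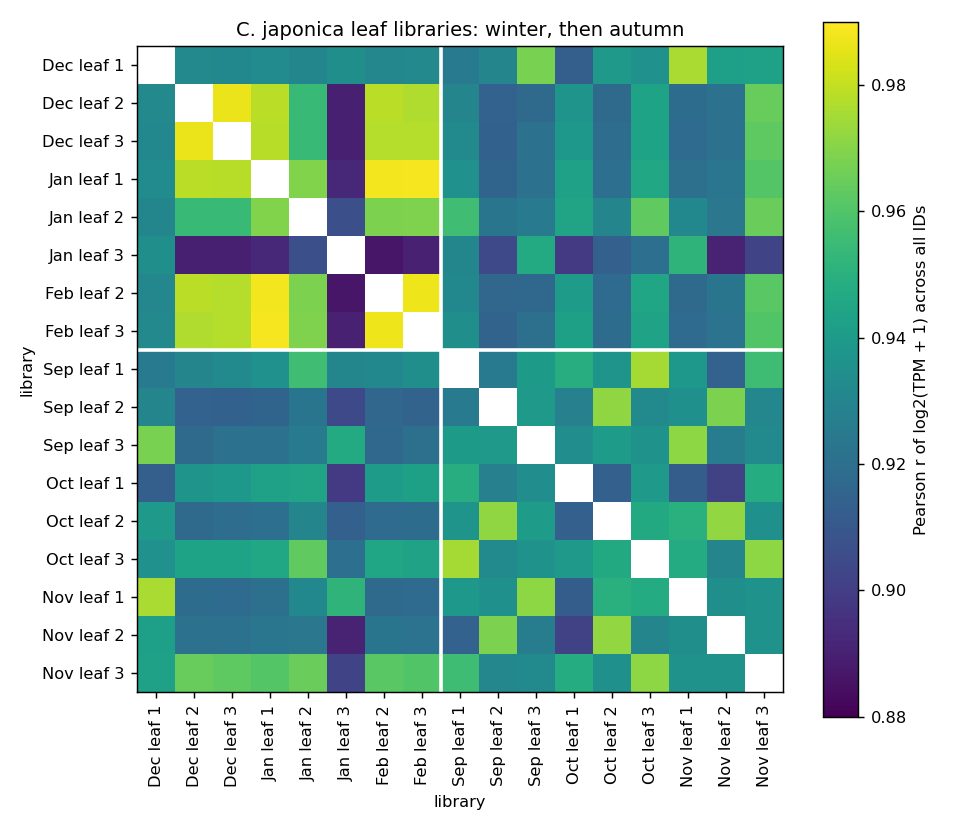
Pearson r of log2(TPM + 1) across 41982 IDs between the 17 C. japonica leaf libraries, with 8 winter libraries first and 9 autumn libraries after the white lines. The bright block holds 6 winter libraries, and Jan leaf 3 and Dec leaf 1 lie outside it, each closest to Nov leaf 1.

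After these checks, winter and autumn leaves differed at 948 of the 27375 IDs tested (3.46%). Of these, 471 were higher in winter (1.72%) and 477 higher in autumn (1.74%), an even split that changed little with the scaling of the libraries, since the median log2 difference of all tested IDs was -0.01. At an unadjusted p below 0.05 there were 6800 IDs. Most differences were moderate. The median log2 difference was 1.45 among the winter-high IDs and -1.37 among the autumn-high IDs, and 81 and 89 of them reached a log2 difference of 2. A log2 difference of 3 was reached by 17 winter-high and 13 autumn-high IDs.

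**Figure D2:**
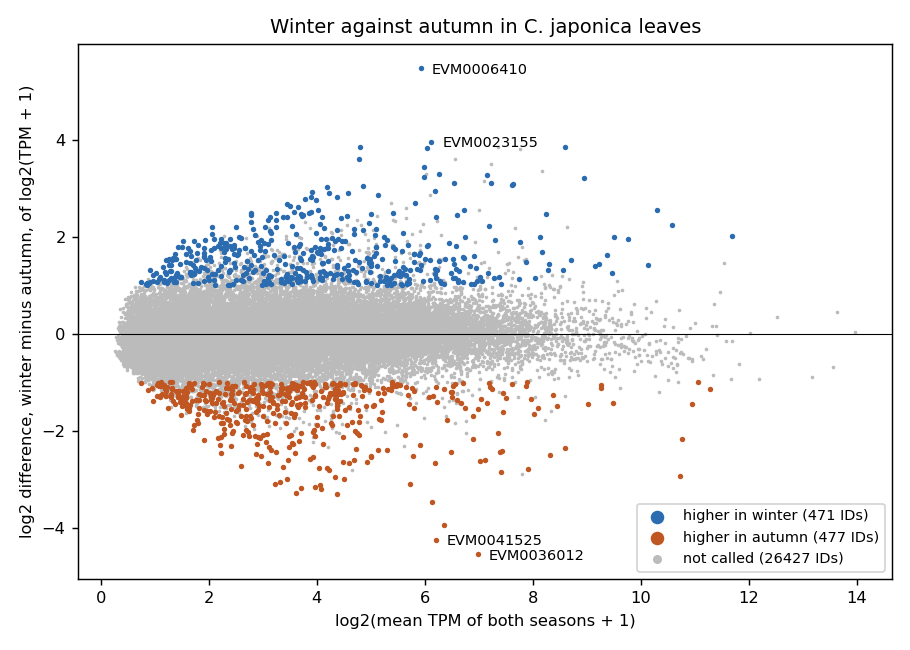
Log2 difference, winter minus autumn, against the log2 of the mean TPM of both seasons plus 1, for 27375 IDs in C. japonica leaves. Blue points are the 471 IDs called higher in winter, orange points the 477 called higher in autumn, grey points are not called, and the 4 named IDs lie at the extremes.

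The number of calls depended on single libraries, winter ones above all. Without Jan leaf 3 it was 1646 and without Dec leaf 1 it was 1567. Without both it was 2451, with 1240 higher in winter and 1211 higher in autumn, and these included 465 of the 471 winter-high and 468 of the 477 autumn-high IDs. Without 1 of the other winter libraries it was 206 (Feb leaf 3), 242 (Feb leaf 2), 416 (Dec leaf 2), 441 (Dec leaf 3), 508 (Jan leaf 1) or 805 (Jan leaf 2). Leaving out any 1 autumn library gave between 633 and 1204 calls. In all, 71 winter-high and 104 autumn-high IDs were called in each of the 17 fits that left out 1 library.

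The largest rises in winter were those of EVM0006410 and EVM0023155. EVM0006410 was at 54.0, 113 and 105 TPM in the Dec libraries 1 to 3, at 121, 128 and 122 TPM in the Jan libraries 1 to 3, and at 99.98 and 125 TPM in Feb leaf 2 and 3. In autumn it was at 49.4 TPM in Sep leaf 1 and 54.5 TPM in Nov leaf 3 and was listed at 0 TPM in the 7 other libraries. The winter values thus lay close together, with 7 of 8 above every autumn library, and Dec leaf 1 at the level of the 2 autumn libraries that were not at 0. This ID was listed at 0 TPM in 11 of the 35 leaf libraries used and at no value between 0 and 49.4 TPM in any of them, and a listed 0 can be a failed estimate. The log2 difference was 5.47 ± 0.86 (SE, limma adjusted p = 0.0062) and 8.04 with a pseudocount of 0.1, so its size reflects the zeros. Between spring and summer libraries, which take no part in the comparison, EVM0006410 was not called (spring minus summer 1.94 ± 1.19, SE, limma adjusted p = 0.222).

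EVM0023155 was at 26.9, 115 and 151 TPM in the Dec libraries, at 161, 180.2 and 22.8 TPM in the Jan libraries, and at 220 and 157 TPM in the Feb libraries. In autumn it was at 6.53, 7.29 and 12.9 TPM in Sep, 6.35, 3.69 and 5.04 TPM in Oct, and 15.8, 0 and 13.3 TPM in Nov. The seasons did not overlap, and Dec leaf 1 and Jan leaf 3 were the lowest winter libraries. Mean levels were 129 ± 70.8 TPM in winter and 7.89 ± 5.13 TPM in autumn (SD, n = 8 and 9), and the log2 difference was 3.95 ± 0.58 (SE, limma adjusted p = 0.0044). Without Jan leaf 3 and Dec leaf 1 the winter mean was 164 ± 34.4 TPM (SD, n = 6). The ID had a median of 132 TPM in the 9 spring libraries (Mar to May) and 11.8 TPM in the 9 summer libraries (Jun to Aug), which share no library with the comparison and differed with a log2 value of 2.96 ± 0.27 (SE, adjusted p in limma = 1.6e-05).

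The largest falls in winter were those of EVM0036012 and EVM0041525. EVM0036012 was at 52.9, 1.07 and 1.78 TPM in the Dec libraries, at 1.19, 53.8 and 175 TPM in the Jan libraries, and at 1.75 and 1.90 TPM in the Feb libraries. In autumn it was at 321, 216 and 291 TPM in Sep, 125, 223 and 264 TPM in Oct, and 241, 38.8 and 218 TPM in Nov. Winter libraries fell into 5 with under 2 TPM and 3 with at least 52.9 TPM, and 5 of 8 lay below every autumn library. Means were 36.2 ± 60.9 TPM in winter and 215 ± 86.1 TPM in autumn (SD, n = 8 and 9), and the log2 difference was -4.55 ± 0.82 (SE, limma adjusted p = 0.0091). The winter mean rests on Jan leaf 3 and was 16.4 TPM without it, and 10.3 TPM with Dec leaf 1 left out as well, where the log2 difference was -5.50.

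EVM0041525 had the same pattern at a lower level. It was at 29.3, 0.693 and 1.65 TPM in the Dec libraries, at 0.944, 32.5 and 95.6 TPM in the Jan libraries, and at 0.883 and 1.04 TPM in the Feb libraries. In autumn it was at 215, 115 and 149 TPM in Sep, 74.4, 119 and 163 TPM in Oct, and 127, 20.1 and 140.1 TPM in Nov. The same 3 winter libraries stood above the other 5, and Nov leaf 2 was again the lowest autumn library. The log2 difference was -4.25 ± 0.74 (SE, limma adjusted p = 0.0083), and the winter mean of 20.3 TPM was 9.58 TPM without Jan leaf 3 and 6.29 TPM without Dec leaf 1 as well. The ratio of EVM0036012 to EVM0041525 in TPM lay between 1.08 and 1.99 in all 17 libraries, with a median of 1.81. Whether the 2 IDs are related copies that share reads is not known from the files. Both were lower in spring than in summer, by -1.43 and -1.40 on the log2 scale (limma adjusted p = 0.00093 and 0.0013), with summer medians of 402 TPM for EVM0036012 and 249.6 TPM for EVM0041525. They were near 0 in the buds FB-2 and FB-3, at no more than 2.12 and 0.782 TPM.

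**Figure D3:**
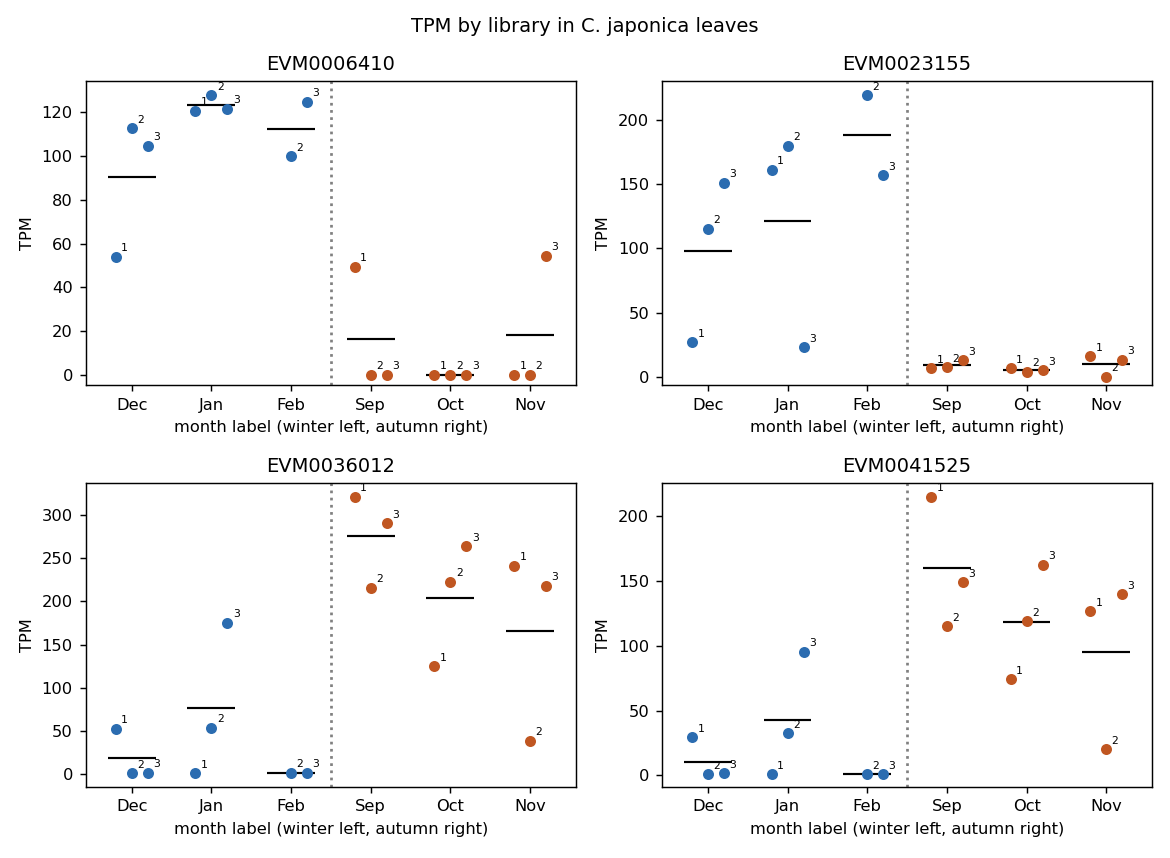
TPM of 4 IDs in each C. japonica leaf library, with winter months (blue) left and autumn months (orange) right of the dotted line. Points are libraries marked with their number, bars are month means. EVM0006410 and EVM0023155 were high in winter, EVM0036012 and EVM0041525 in autumn, with Jan leaf 3 at 175 and 95.6 TPM as the highest winter library of the last 2.

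The IDs called in each season covered a wide range of levels. Of the 471 winter-high IDs, 139 had a winter mean of at least 50 TPM, 251 lay between 5 and 50 TPM and 81 below 5 TPM. Of the 477 autumn-high IDs, 84 had an autumn mean of at least 50 TPM, 297 lay between 5 and 50 TPM and 96 below 5 TPM. Few were switched fully off, as 2 winter-high IDs were at 0 TPM in all 9 autumn libraries and 2 autumn-high IDs were at 0 TPM in all 8 winter libraries. Below 1 TPM in every library of the lower season were 32 winter-high and 13 autumn-high IDs.

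Together, the winter-high IDs held between 1.46% and 5.78% of TPM in winter libraries (median 5.39%) and between 0.745% and 1.88% in autumn libraries (median 1.09%). The autumn-high IDs held between 0.720% and 4.74% in winter libraries (median 0.888%) and between 2.22% and 4.92% in autumn libraries (median 3.26%). These shares describe IDs chosen by the same libraries. In winter, Jan leaf 3 had the lowest winter-high share (1.46%) and the highest autumn-high share (4.74%), followed by Dec leaf 1 with 2.26% and 1.99% and Jan leaf 2 with 2.39% and 1.80%. The other winter libraries held between 5.38% and 5.78% in winter-high IDs and between 0.720% and 0.932% in autumn-high IDs.

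The seasons overlapped for most called IDs. Of all tested IDs, 98 had no overlap between the seasons (0.358%). Of these, 41 had every winter library above every autumn library (0.15%), 16 of them called, and 57 had every autumn library above every winter library (0.208%), 36 of them called. With Jan leaf 3 and Dec leaf 1 left out, the seasons did not overlap for 159 of the 471 winter-high and 211 of the 477 autumn-high IDs, against 2.56% of all tested IDs with winter above and 2.02% with autumn above. Measured against season means that left the library itself out, Jan leaf 3 lay nearer to the winter mean for 38.4% of the 948 called IDs, Dec leaf 1 for 45.6% and Jan leaf 2 for 64.7%. The 5 other winter libraries lay nearer to the winter mean for between 91.4% and 99.7% of these IDs. Among autumn libraries this share was highest in Nov leaf 3 (30.8%) and lowest in Sep leaf 2 (3.9%). Each library still took part in the fit that chose the 948 IDs, so these shares are a description and no independent check.

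Within each season no ID passed a test between months. A moderated F test in limma over the Dec, Jan and Feb means called 0 of 27375 IDs (0.0%), with 1058 at an unadjusted p below 0.05. The same test over the Sep, Oct and Nov means also called 0 (0.0%), with 705 at an unadjusted p below 0.05. This does not show that the months were alike, given 2 or 3 libraries a month. In winter 24 IDs were called without Jan leaf 3, 19 without Jan leaf 1, 11 without both Jan leaf 3 and Dec leaf 1, and 1 without Feb leaf 3.

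As a description, the levels of the called IDs were most extreme in Feb. Feb had 2 libraries, and in the contrast that chose the IDs each counted more than a Dec or Jan library. The median level of the 471 winter-high IDs, on the log2(TPM + 1) scale, was 2.41 in Sep, 2.57 in Oct, 3.00 in Nov, 4.18 in Dec, 3.84 in Jan and 4.82 in Feb. That of the 477 autumn-high IDs was 3.84, 3.75 and 3.64 in Sep, Oct and Nov, and 2.21, 2.52 and 1.63 in Dec, Jan and Feb. Without Jan leaf 3 and Dec leaf 1, the winter-high medians were 4.56 in Dec, 4.31 in Jan and 4.82 in Feb, and the autumn-high medians 1.86, 2.26 and 1.63. Over all tested IDs the month medians lay between 3.13 and 3.36 in these 6 months. Among autumn months, the highest mean was in Nov for 338 of the 471 winter-high IDs, and in Sep for 221 of the 477 autumn-high IDs.

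Through the rest of the year the winter-high IDs had higher medians in spring than in summer and the lowest one in Aug. Their median level was 3.85 in Mar, 3.74 in Apr and 3.99 in May, then 3.25 in Jun, 2.72 in Jul and 2.12 in Aug. The autumn-high IDs were at 3.10, 3.01 and 3.13 in Mar, Apr and May, and at 3.52, 3.83 and 3.72 in Jun, Jul and Aug. Of 12 month means, the highest was in Feb for 255 winter-high IDs and in May for 89, and in Jul for 125 autumn-high IDs and in Aug for 81. The lowest was in Aug for 179 winter-high IDs and in Feb for 301 autumn-high IDs. The Sep to Feb libraries chose these IDs, so counts of highs and lows in those months are a description. Among winter months alone, the highest mean was in Feb for 382 of the 471 winter-high IDs. Without Jan leaf 3 and Dec leaf 1 it was in Feb for 219 and in Dec for 190.

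**Figure D4:**
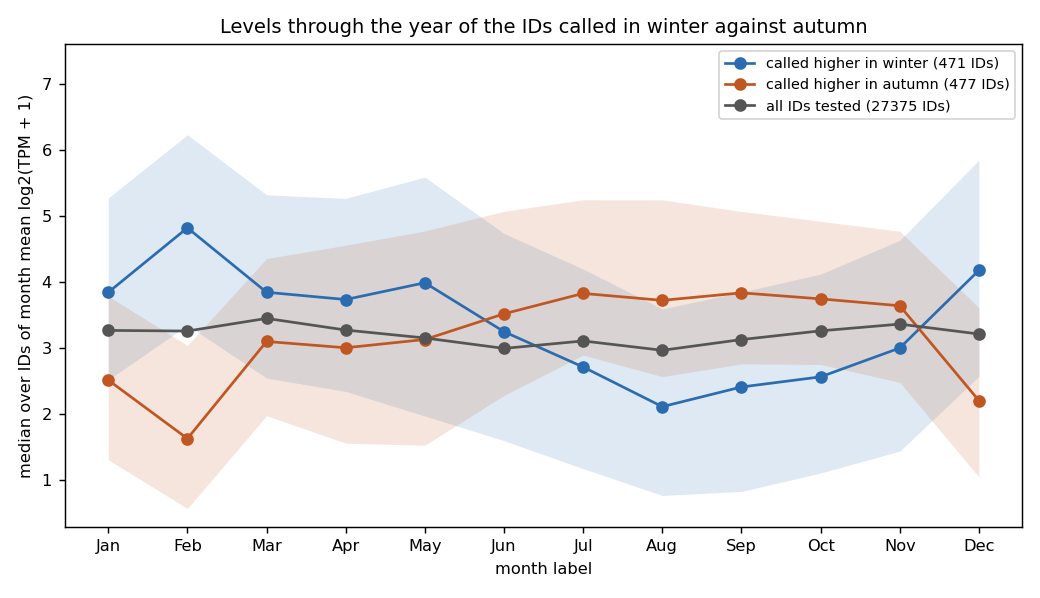
Median over IDs of the month mean of log2(TPM + 1) in C. japonica leaves from Jan to Dec, for the 471 IDs called higher in winter, the 477 called higher in autumn and all 27375 tested; shading spans the quartiles of the called IDs. The winter-high median was highest in Feb (4.82) and lowest in Aug (2.12), and the autumn-high median lowest in Feb (1.63). Sep to Feb chose the IDs, Mar to Aug did not.

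Spring and summer libraries took no part in choosing these IDs and could be tested. In spring minus summer, limma called 8.59% of 26907 IDs, 6.63% higher in spring and 1.96% higher in summer. Of the 462 winter-high IDs tested there, 234 were higher in spring (50.6%) and 1 higher in summer, with a median log2 difference of 1.05. Of the 477 autumn-high IDs, 149 were higher in summer (31.2%) and 21 higher in spring (4.4%), with a median of -0.70. The median of all IDs in spring minus summer was itself 0.24, and the balance of its calls turned on the scaling, with 77.2% of 2311 calls higher in spring on deposited TPM and 975 of 1842 after median-of-ratios scaling, where the median was 0.01. With that scaling in both fits, 163 of 443 winter-high IDs were higher in spring (36.8%, against 3.62% of all tested) and 207 of 510 autumn-high IDs higher in summer (40.6%, against 3.22%). With Jan leaf 3 and Dec leaf 1 left out, the shares on deposited TPM were 49.6% of 1218 winter-high IDs and 23.6% of 1202 autumn-high IDs. With month means as the unit, spring minus summer had 12 calls.

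Presence in the flower buds FB-2 and FB-3 was near the share of all tested IDs for the winter-high IDs and below it for the autumn-high IDs. At 1 TPM or more in all 6 of these bud libraries were 368 of the 471 winter-high IDs (78.1%), 314 of the 477 autumn-high IDs (65.8%) and 77.0% of all tested IDs. The median bud level on the log2(TPM + 1) scale was 3.86 for the winter-high IDs, 3.13 for the autumn-high IDs and 3.57 for all tested IDs. These shares are a description and were not tested.

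Most IDs called in C. japonica were not called in C. azalea. In the 18 leaf libraries of C. azalea from the same months, limma called 5.85% of 26310 IDs, 723 higher in winter (2.75%) and 816 higher in autumn (3.1%). With month means as the unit, C. azalea had 3 calls. The tables of the species were normalized separately and share no library, so only differences within each species are set side by side. Of the 424 winter-high IDs tested in C. azalea, 61 were winter-high there too (14.4%) and 35 were autumn-high (8.25%). Of the 452 autumn-high IDs tested there, 36 were autumn-high there too (7.96%) and 33 were winter-high (7.3%). Seen from the other side, 61 of the 558 C. azalea winter-high IDs tested in C. japonica were winter-high in both (10.9%) and 33 were autumn-high in C. japonica (5.91%), against 1.72% and 1.74% of all C. japonica IDs tested. Of 735 C. azalea autumn-high IDs, 36 were autumn-high in both (4.9%) and 35 were winter-high in C. japonica (4.76%). Of 165 IDs called in both species, 97 had the same season (58.8%). The median log2 difference in C. azalea was 0.28 for the winter-high and -0.07 for the autumn-high IDs, against 0.07 for all IDs tested in both. These medians were 0.23 and -0.16 with median-of-ratios scaling, and 0.16 and -0.05 without Jan leaf 3 and Dec leaf 1. Across the 876 called IDs tested in both species, r of the log2 differences was 0.17, and across all 23965 IDs tested in both it was 0.09, as a description, since IDs share libraries. Without Jan leaf 3 and Dec leaf 1, 10.2% of 1045 winter-high IDs were winter-high in C. azalea and 7.66% autumn-high, and 6.01% of 1132 autumn-high IDs were autumn-high there and 5.74% winter-high.

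**Figure D5:**
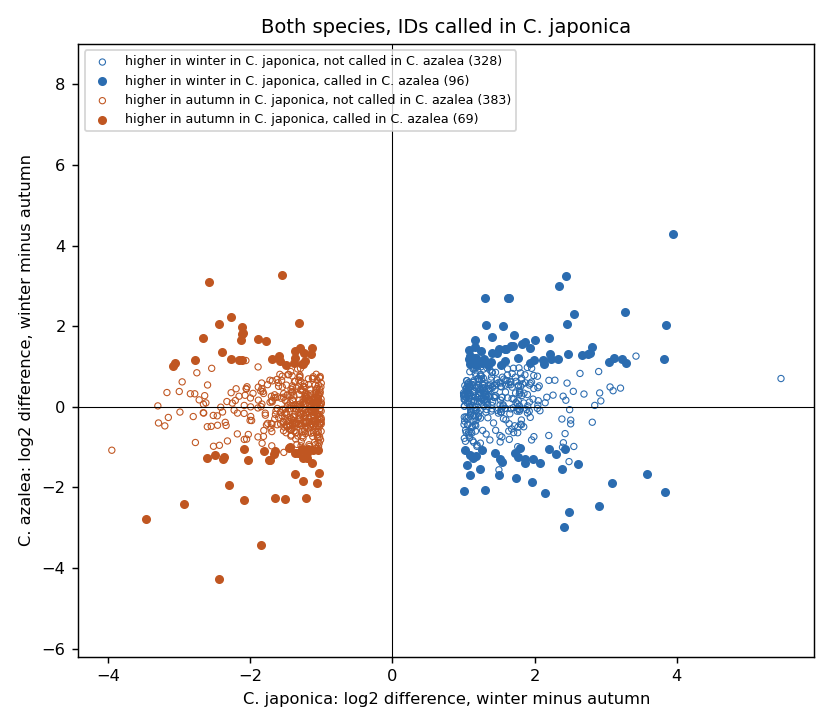
Log2 difference, winter minus autumn, in C. japonica (x axis) and in C. azalea (y axis) for the 876 IDs called in C. japonica and tested in both. Filled points were also called in C. azalea. The gap around 0 on the x axis is the call limit. Of the winter-high IDs, 61 were winter-high and 35 autumn-high on the y axis, and of the autumn-high IDs, 33 were winter-high and 36 autumn-high.

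EVM0023155 was among the shared IDs. In C. azalea it was at 20.1 TPM at the lowest, 53.1 at the median and 104 at the highest in 9 winter libraries, and at 0.295, 1.97 and 3.78 TPM in 9 autumn libraries, with no overlap, and differed with a log2 value of 4.28 ± 0.21 (SE, limma adjusted p = 1.1e-10). The difference between the species was -0.32 ± 0.62 (SE, limma adjusted p = 0.801). EVM0006410 was not called in C. azalea (0.70 ± 1.09, limma adjusted p = 0.713), where it was listed at 0 TPM in 4 of 9 winter and 4 of 9 autumn libraries. Its difference between the species was not called either (4.77 ± 1.57, SE, limma adjusted p = 0.053), so no species difference is shown for it. EVM0036012 and EVM0041525 were at or below 0.357 TPM in winter and at 0 TPM in all autumn libraries of C. azalea, where little change can be measured.

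The seasonal differences were then tested against each other. This contrast, C. japonica winter minus autumn less C. azalea winter minus autumn, called 2149 of 29906 IDs (7.19%). Winter minus autumn had the higher value in C. japonica for 913 IDs (3.05%) and the lower value for 1236 (4.13%). The contrast is signed, so higher and lower do not give the size of the seasonal change. EVM0036012 was called lower (-4.68) with a fall of -4.55 in C. japonica and levels near 0 TPM in C. azalea. The balance turned under quantile normalization, with 1121 higher and 1001 lower. Without Jan leaf 3 and Dec leaf 1 there were 3844 calls, 1728 higher and 2116 lower. With month means as the unit there were 13 calls. Since the C. japonica libraries chose the winter-high and autumn-high IDs, it is only a description that 237 of 471 and 291 of 477 of them were called for a difference in the direction of their own season.

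For the 4 IDs with the largest species differences, the log2 difference had opposite signs in the 2 species. The contrast that chose these IDs favours opposite signs, so their signs and seasonal p-values are a description. Of the 165 IDs called in both species, 97 had the same season. All 8 seasonal differences of the 4 chosen IDs were called in the main fits, but in C. japonica that of EVM0036026 was near the threshold. Each of the 8 kept its sign in all fits that left out 1 library. With month means as the unit, only that of EVM0012501 in C. japonica was called (limma adjusted p = 0.035, the others between 0.069 and 0.804). With Feb leaf 1 included, none in C. japonica was called (adjusted p between 0.140 and 0.587). Without the filter, EVM0036026 in C. japonica and EVM0011960 in C. azalea were not called (adjusted p = 0.062 and 0.060). EVM0011960 was at 10.6 TPM at the lowest, 670.5 at the median and 1934 at the highest in C. japonica winter libraries, and at 6.05, 17.4 and 46.7 TPM in autumn libraries. The 2 winter libraries that overlapped autumn were again Jan leaf 3 (10.6 TPM) and Dec leaf 1 (12.6 TPM). In C. azalea it was at 1.39, 16.98 and 299 TPM in winter and at 22.7, 119.8 and 547 TPM in autumn. The log2 differences were 3.84 ± 0.86 in C. japonica (SE, limma adjusted p = 0.020) and -2.10 ± 0.61 in C. azalea (adjusted p = 0.022), and their difference was 5.94 ± 1.12 (adjusted p = 0.0011). In C. azalea the 3 Dec libraries were at 238, 299 and 91.0 TPM and the 3 Feb libraries at 2.39, 4.71 and 16.98 TPM, and 2 autumn libraries lay above every winter library. The C. japonica call was lost without Feb leaf 2, Feb leaf 3 or Dec leaf 2 (limma adjusted p = 0.073, 0.070 and 0.052), and the C. azalea call without Sep leaf 2 (adjusted p = 0.0502). The median of the 6 C. japonica winter libraries other than Jan leaf 3 and Dec leaf 1 was 1256 TPM.

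EVM0010016 was at 0.856 TPM at the lowest, 9.07 at the median and 53.9 at the highest in C. japonica winter libraries, and at 0, 1.01 and 5.20 TPM in autumn libraries. In C. azalea it was at 5.06, 19.3 and 115 TPM in winter and at 33.8, 196 and 513 TPM in autumn. The difference between the species was 5.39 ± 0.74 (SE, limma adjusted p = 2.3e-05). Within C. japonica the log2 difference was 2.41 ± 0.50 (SE, limma adjusted p = 0.017), and the call was lost without Feb leaf 2 (adjusted p = 0.072). In C. japonica 4 of 8 winter libraries lay above every autumn library, and in C. azalea 6 of 9 winter libraries lay below every autumn library.

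EVM0012501 and EVM0036026 went the other way. EVM0012501 was at 0.855 TPM at the lowest, 2.13 at the median and 6.41 at the highest in C. japonica winter libraries, and at 5.89, 16.3 and 67.3 TPM in autumn libraries. In C. azalea it was at 1.98, 63.5 and 630 TPM in winter and at 2.05, 3.73 and 12.9 TPM in autumn, with the winter highs in Jan and Feb and 1.98, 9.35 and 6.85 TPM in Dec. The difference between the species was -5.69 ± 0.51 (SE, limma adjusted p = 3.9e-08). EVM0036026 was at 0, 1.12 and 3.74 TPM in C. japonica winter and 0.792, 5.604 and 31.8 TPM in autumn libraries. In C. azalea it was at 0, 52.5 and 113 TPM in winter and 0.0631, 0.541 and 6.61 TPM in autumn, and the difference was -4.84 ± 0.51 (SE, limma adjusted p = 5.0e-07). Its C. azalea winter highs were likewise in Jan and Feb, with the Dec libraries at 0, 0.145 and 1.47 TPM from lowest to highest. Within C. japonica the log2 difference of EVM0036026 was -1.56 ± 0.43 (SE, limma adjusted p = 0.045), and this call was kept in only 6 of 17 fits that left out 1 library. It was lost without Jan leaf 1, Jan leaf 2, Feb leaf 2, Feb leaf 3, Dec leaf 2 or Dec leaf 3 in winter, and without any Oct library, Nov leaf 1 or Nov leaf 2 in autumn (limma adjusted p between 0.0515 and 0.130). That of EVM0012501 was -2.58 ± 0.32 (SE, limma adjusted p = 0.0019) and was kept in all 17. Both IDs were more abundant in buds than in leaves of C. japonica, with medians of 184 and 96.0 TPM in FB-2 and FB-3, and at 2552 and 224 TPM in the library labelled Feb leaf 1, and the part of bud tissue in their seasonal values was not tested. With month means as the unit none of the 4 species differences was called in limma, with adjusted p between 0.068 and 0.259.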

How the data were processed

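Total RNA of young leaves was sequenced from Illumina libraries, per the labels' protocols. Values were deposited by the authors as TPM in 1 table per species. HISAT2 2.1.0 and StringTie 1.3.6 were used, per the submitters' processing notes. Information on their settings, on the genome build and on gene models was not given in the sources used here. The code in each title linked a column to its library, and winter and autumn were formed from the month labels.

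Tests used limma 3.58.1 in R 4.3.3 on log2(TPM + 1), with eBayes allowing a mean-variance trend and 1 mean per month, all two-sided, and p-values were adjusted by Benjamini-Hochberg over every ID tested. Fold changes on this scale understate changes of low values. The procedure was also run on simulated data with independent noise for each ID and library. These lack the likeness between libraries seen here, so they do not give the rate of false calls in these data. Alternatives were a pseudocount of 0.1, no filter on low values, median-of-ratios scaling, quantile normalization, month means as the unit, array weights, all 35 leaf libraries in the fit, Feb leaf 1 included, a replicate block, and each library left out. Omitting Jan leaf 3 and Dec leaf 1 together was added after seeing the data.

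The comparison, the lists and the tests were chosen with earlier results of these data known. IDs were named by rule: the 2 called in each direction with the largest log2 difference whose mean in the higher season reached 5 TPM. For the species difference the mean was that of the species with the larger change. The same rule for month effects within seasons found no ID. A further rule, on the largest differences in TPM, is not printed, to keep to 2 unnamed IDs per direction. Marker and pathway lists by gene name could not be applied, as 0 IDs carry names.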

Additional observations from a re-analysis of the deposited data

Results flagged for a closer look

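Single libraries far from the rest of their season, by a gap test that chance alone passes in about 1 in 20 groups, were found in 10 of 32 groups of values. Groups share libraries and several hold IDs chosen for large differences, so these rates cannot be set against each other. In C. japonica winter, Jan leaf 3 stood apart with 175 TPM of EVM0036012, 95.6 TPM of EVM0041525 and 10.3% of TPM in its 10 most abundant IDs, and Dec leaf 1 with 54.0 TPM of EVM0006410, the lowest winter value. In C. japonica autumn, Oct leaf 1 had 5.20 TPM of EVM0010016, Sep leaf 2 had 31.8 TPM of EVM0036026, and Nov leaf 2 had 17.4 TPM in the summed bud list. In C. azalea, Jan leaf 1 had 115 TPM of EVM0010016 in winter, Sep leaf 2 had 513 TPM of EVM0010016 in autumn and Sep leaf 1 had 6.61 TPM of EVM0036026 in autumn.

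The winter minus autumn difference itself differed between the species, C. japonica minus C. azalea, for 2149 IDs in limma. With month means as the unit it did so for 13 IDs. Among the 2149 IDs, EVM0011960 differed by 5.94, EVM0010016 by 5.39, EVM0012501 by -5.69 and EVM0036026 by -4.84 on the log2 scale.

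Libraries outside the comparison went against their labels. The library labelled Feb leaf 1 held 1624 TPM of the bud list, against at most 17.4 TPM in the autumn leaves, and correlated best with FB-1 bud 2 (r = 0.935). The library labelled FB-1 bud 1 held 690 TPM of the leaf list, against at most 3.52 TPM in FB-2 and FB-3, and correlated best with Dec leaf 2 (r = 0.981).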

How the results depend on the processing

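In C. japonica winter minus autumn, 6 alternatives kept the count of 948 calls within 1.5 times, and both rescalings kept the direction and call of the 4 named IDs, as did every other alternative run. The count was 168 with Feb leaf 1 included, 2668 with array weights and 2451 without Jan leaf 3 and Dec leaf 1, and between 206 and 1646 without 1 library. Without a Feb library, the lone Feb library is assumed to vary like the others. Within winter, 0 calls became 2 with a pseudocount of 0.1, 4 without a filter, 11 without Jan leaf 3 and Dec leaf 1, and between 0 and 24 without 1 library. Spring minus summer had 3469 calls with a pseudocount of 0.1 and 12 with month means as the unit. C. azalea winter minus autumn had 2347 calls with a pseudocount of 0.1 and 3 with month means as the unit. The species difference had 519 calls with Feb leaf 1 included, 13 with month means as the unit and 3844 without Jan leaf 3 and Dec leaf 1. Without 1 library, counts lay between 2003 and 2661 for spring minus summer, 1399 and 1814 for C. azalea and 1698 and 2978 for the species difference, and within autumn stayed at 0. The winter minus autumn difference in IDs at 1 TPM then lay between -438 and -199.5, and that in the share of the 10 most abundant IDs between -0.382 and 0.119 percentage points, none past 0.05. The cause of these shifts was not tested. With a replicate block on the C. azalea numbers, C. azalea had 1546 calls and the species difference 1974. Those numbers do not pair the libraries, as 6 of 45 same-numbered pairs had a correlation of deviations over 0.1 and 1 of 18 libraries correlated best with its own number. C. japonica labels carry no numbers. TPM keep no depth, so what depth limits cannot be given.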
